A study of Mus musculus with 4 samples.

Results

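A set of 10 germline genes was followed in mouse embryonic stem cells (mESCs): *Dazl*, *Ddx4*, *Mael*, *Sycp1*, *Sycp3*, *Tex101*, *Asz1*, *Piwil2*, *Stk31* and *Taf7l*. They were chosen by name, as genes of germ cells and of the piRNA pathway that are normally held silent by promoter methylation, and are 10 of the 37310 genes in the deposited count table. RNA was sequenced from 4 libraries of the HATX mESC line, which carries a doxycycline-inducible *Xist* transgene, with 2 libraries of the wild-type (WT) line and 2 of *Spen* KO clone 2, made in the same line. The labels give a mixed genomic background and growth in serum and LIF on gelatin, and they state no treatment. The study describes the cells as haploid and the KO as a deletion of the whole *Spen* gene or of most of it. The KO group is 1 clone, so anything else that sets this clone apart from the WT line cannot be told apart from the effect of the deletion. The comparison asks how RNA levels of these genes differ when Spen, a repressor that binds RNA and through which *Xist* silences the X chromosome, is lost.

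In most tissues germline genes are kept off by DNA methylation at promoters rich in CpG dinucleotides, and they come on when methylation is erased in primordial germ cells. Some of them are repressed in mESCs by a variant Polycomb complex that contains MGA, MAX, E2F6, L3MBTL2 and PCGF6 and binds E-box and E2F motifs. Several of these genes take part in making or using piRNAs, small RNAs that guide PIWI proteins against transposable elements, and others build the synaptonemal complex that joins homologous chromosomes in meiosis. DNA methylation was not measured in these libraries.

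*Spen* was examined first. Its normalized read counts (counts divided by the DESeq2 size factor of the library) were 3716 and 3047 in WT and 7797 and 6242 in the libraries labelled KO. Its counts were higher in the KO group (log2 fold change 1.05 ± 0.21, SE, DESeq2 adjusted p = 7.7e-06). Counts per gene do not show which exons were read, so *Spen* RNA was not used as a check of the labels, and the group is named by its label, KO-labelled. Total counts ranged from 36667685 to 61908422 per library. Counts of 1 to 20 were even in 64.0% to 66.5% of genes, against the 50% of counts that are not made in pairs, so low counts carry less information than their size. The 10 stem cell markers checked, among them *Pou5f1*, *Nanog* and *Sox2*, summed to between 247489 and 265335 normalized counts per library. Part of this sum is uncertain, since many 75-base exonic windows of some markers had a near-identical copy elsewhere in the genome. The shares were 82.4% for *Dppa5a*, 59.0% for *Nanog*, 58.1% for *Zfp42*, 46.0% for *Tdgf1*, 31.8% for *Klf4* and 24% for *Pou5f1*. Of the 10 spermatocyte and spermatid markers, *Tnp1* and *Prm2* had no count. A total of 6, these included, stayed at or under 10 raw counts in every library. The normalized counts of all 10 summed to 369 and 442 in WT and 484 and 500 in the KO-labelled group. The 8 spermatogonial markers summed to 4127 and 4325 in WT and to 5643 and 6262 in the KO-labelled libraries, and the 5 matched primordial germ cell markers to 11488 and 11774 against 9093 and 9341. The 8 oocyte markers summed to 317 and 347 against 524 and 484, with *Oosp1* at 0, the 8 fibroblast markers to 1116 and 1530 against 1225 and 1184, and the 6 matched markers of 2-cell-like cells to 333 and 204 against 263 and 192. Each of these 2-cell-like markers has near-identical copies of at least 85.1% of its windows. The part of these shifts in the results was not tested. In bulk RNA, fewer cells of a type and less RNA per cell cannot be told apart.

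Of the 10 germline genes, 3 had more RNA in the KO-labelled libraries: *Mael*, *Sycp1* and *Taf7l*. The other 7 did not pass the test in either direction, although *Dazl* showed its lowest levels in both KO-labelled libraries. All 10 genes had counts in every library and received an adjusted p. At a DESeq2 adjusted p under 0.05, 3 of the 10 were higher, against 16.4% of the 17710 genes tested, and 0 were lower, against 15.8%. At the thresholds of the study (2-fold or more, with the adjusted p below 0.001), 1 of the 10 was called higher (*Sycp1*) against 1.36% of all genes, and 0 were called lower against 3.15%. At an unadjusted p under 0.05 in DESeq2, 1 was lower (*Dazl*), and edgeR called 1 of the 10 higher and 0 lower at the study's thresholds. Both KO-labelled libraries lay above both WT libraries for 4 of the genes, against 35.4% of all genes, and below both for 3, against 34.8%. These shares are near the background for genes whose groups do not overlap. The median log2 fold change of the 10 was -0.08, beside 0.0049 over all genes tested, with 4 values above 0 and 6 below. Over the 4 pairs of a WT and a KO-labelled library, the median log2 ratio of the 10 ran from -0.086 to 0.037. Nothing says that the libraries of a group came from separate cultures, so p-values measure only the spread between these libraries, which may be technical.

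**Figure D1:**
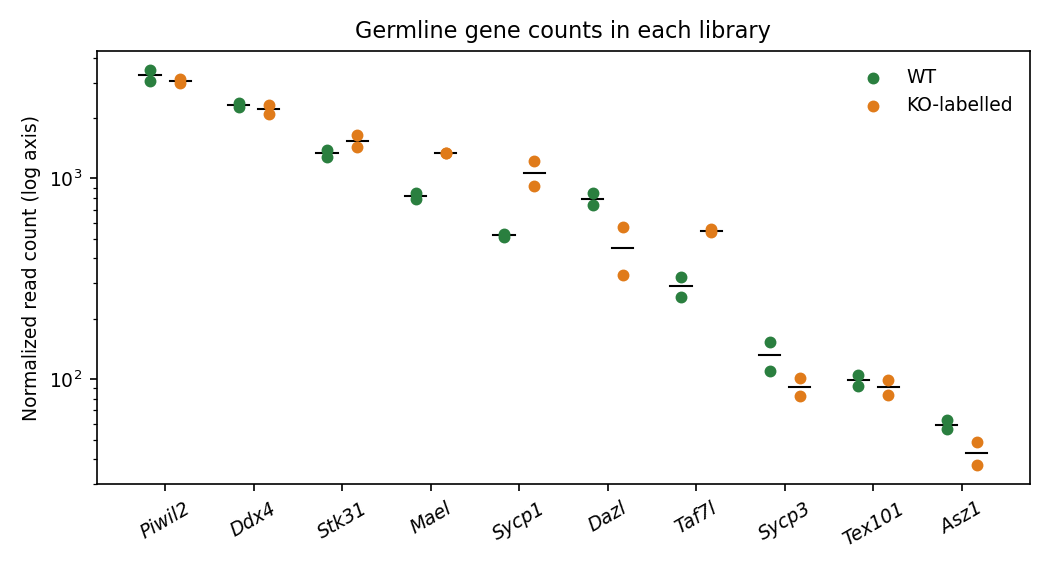
Normalized read count of each of the 10 germline genes in each of the 4 libraries (log axis), with green points for WT, orange points for KO-labelled libraries and a bar at the mean of each pair. The KO-labelled points of *Mael*, *Sycp1*, *Taf7l* and *Stk31* lie above the WT points, those of *Dazl*, *Sycp3* and *Asz1* lie below, and the pairs of *Ddx4*, *Piwil2* and *Tex101* overlap.

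*Mael* encodes Maelstrom, a protein of the germ granule needed for piRNA-guided silencing. It lies on chromosome 1 (168131516 to 168168875, minus strand, NCBIM37/mm9, as all gene positions here). Its normalized counts were 792 and 849 in WT and 1342 and 1341 in the KO-labelled libraries, which were nearly equal and both stood well above WT, a 1.63-fold difference (log2 fold change 0.71 ± 0.12, 95% interval 0.47 to 0.94, DESeq2 adjusted p = 4.41e-08). The median log2 fold change of chromosome 1 was 0.10, and the difference of *Mael* was 0.61 with this median removed.

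*Sycp1* encodes the transverse filament of the synaptonemal complex, and lies on chromosome 3 (102622422 to 102740023, minus strand). It had 529 and 513 normalized counts in WT and 1221 and 912 in the KO-labelled pair. The WT libraries lay close together and the KO-labelled libraries apart from each other, both above WT. This was the largest fold among the 10 genes, 2.05-fold (log2 fold change 1.03 ± 0.16, interval 0.72 to 1.35, DESeq2 adjusted p = 1.87e-09). It sat at the 2-fold threshold: without KO-labelled replicate 1 it was 0.82 (adjusted p = 0.0018), and with the median of chromosome 3 removed 0.94, so that no gene of the 10 was called higher there. Of its 54 windows of 75 bases, 6 (11.1%) had a near-identical copy elsewhere in the genome, so part of its count is uncertain.

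*Taf7l*, on the X chromosome (130994657 to 131011029, minus strand), encodes a germ cell paralogue of the TFIID subunit TAF7. Its normalized counts were 322 and 258 in WT and 557 and 541 in the KO-labelled libraries. All KO-labelled values exceeded the WT values (1.90-fold, log2 fold change 0.92 ± 0.18, interval 0.56 to 1.29, DESeq2 adjusted p = 5.64e-06), while the median of the X chromosome was -0.06. It was called at the study's thresholds without WT replicate 1 (1.09), and it missed the adjusted p of 0.001 without WT replicate 2 (0.77, adjusted p = 0.0134), KO-labelled replicate 1 (0.91, adjusted p = 0.0117) or KO-labelled replicate 2 (0.95, adjusted p = 0.0065). *Mael*, *Sycp1* and *Taf7l* were the higher genes at an adjusted p under 0.05 in all 12 alternative settings that gave an adjusted p, edgeR among them.

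**Figure D2:**
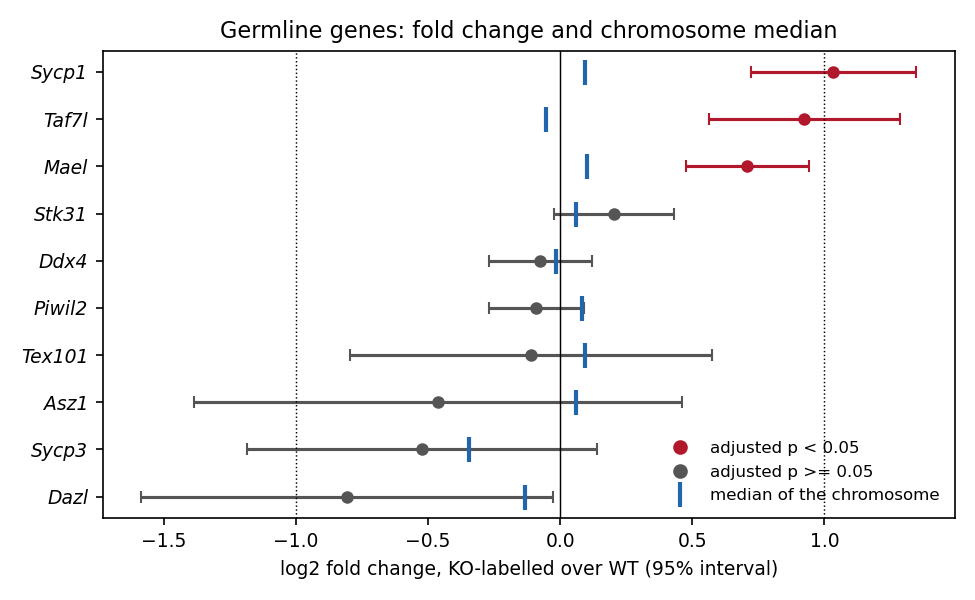
log2 fold change (KO-labelled over WT) of the 10 germline genes with the 95% interval, in red where the DESeq2 adjusted p was under 0.05; blue ticks mark the median log2 fold change of the gene's chromosome and dotted lines mark a 2-fold change. The intervals of *Sycp1*, *Taf7l* and *Mael* lie above 0 and above their chromosome ticks, and the interval of *Dazl* ends at -0.03.

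The promoters of *Mael*, *Sycp1* and *Taf7l*, the genes that rose, and of *Ddx4*, which holds both motifs searched and had no detected difference in RNA, are shown for what they share and where they differ. Each is the 250 bases before the RefSeq start, 5′ to 3′ on the gene's strand, from the RefSeq table on GRCm38.p6, a later build than that of the counts. Capitals mark CACGTG, the E-box core, and GCGGGA, an E2F core, or its reverse complement TCCCGC. The stretches are chr1:166238745-166238994, chr3:102936101-102936350, chrX:134476491-134476740 and chr13:112652311-112652560, all on the minus strand.
Mael: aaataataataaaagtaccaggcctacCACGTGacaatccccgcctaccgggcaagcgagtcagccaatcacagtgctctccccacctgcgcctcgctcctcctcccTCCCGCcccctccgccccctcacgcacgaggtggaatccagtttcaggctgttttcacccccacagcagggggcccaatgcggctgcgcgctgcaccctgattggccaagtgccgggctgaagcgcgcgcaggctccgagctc
Sycp1: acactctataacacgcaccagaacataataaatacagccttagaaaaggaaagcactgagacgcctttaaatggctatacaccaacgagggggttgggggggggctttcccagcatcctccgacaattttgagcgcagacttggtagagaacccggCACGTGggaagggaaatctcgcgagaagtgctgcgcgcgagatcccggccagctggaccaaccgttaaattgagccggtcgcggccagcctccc
Taf7l: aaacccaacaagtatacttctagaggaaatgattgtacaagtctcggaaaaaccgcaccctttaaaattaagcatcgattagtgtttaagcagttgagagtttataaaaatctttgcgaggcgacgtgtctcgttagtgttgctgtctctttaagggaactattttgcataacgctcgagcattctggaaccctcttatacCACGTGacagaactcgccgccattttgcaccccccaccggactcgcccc
Ddx4: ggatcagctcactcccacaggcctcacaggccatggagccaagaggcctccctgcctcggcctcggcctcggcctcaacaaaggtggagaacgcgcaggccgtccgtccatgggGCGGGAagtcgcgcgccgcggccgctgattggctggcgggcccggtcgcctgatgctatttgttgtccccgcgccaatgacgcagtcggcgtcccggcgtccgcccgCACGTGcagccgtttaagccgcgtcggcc

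All 4 promoters held 1 CACGTG. Counting the RefSeq start as position 0, it began at -223 in *Mael*, -94 in *Sycp1*, -49 in *Taf7l* and -29 in *Ddx4*. *Mael* and *Ddx4* also held the E2F core before the start, at -143 and -136, *Mael* and *Sycp1* held it after the start, at 11 and 2, and *Taf7l* held none in its 300-base window. Windows of 300 bases (250 before and 50 after the start) were given for 9 of the 10 genes, with 2 windows for *Stk31*. CACGTG was present in 6 of these 9 genes, the others being *Stk31* and *Sycp3*, and in 7 of the 10 windows (70%), against 7.15% of the 32851 windows of all genes and 11.5% of the windows at least as rich in CpG as the lowest of the 10. GCGGGA was in 4 windows (40%), against 19.98% of all windows and 44.5% of the CpG-rich ones. Both motifs stood in the windows of *Mael*, *Sycp1*, *Sycp3* and *Ddx4* (40%), against 1.99% of all windows and 5.04% of the CpG-rich ones. In the lists of other germline genes described below, CACGTG was in 35.7% of piRNA, 25% of meiotic, 26.7% of methylation-responsive and 22.2% of X-linked windows. GCGGGA was in 21.4%, 62.5%, 53.3% and 11.1% of these, and both motifs in 7.14%, 21.9%, 13.3% and 0%. *Asz1*, *Tex101* and *Dazl* held neither in these windows. CpG dinucleotides per window ranged from 15 to 38, and the observed-to-expected CpG ratio from 0.67 to 1.03, with a median of 0.79 against 0.38 over all windows. All 3 genes that rose held the E-box core, and so did 3 of the 6 others with a window. The 3 without it, *Asz1*, *Tex101* and *Dazl*, had log2 fold changes below 0. *Ddx4* and *Sycp3*, which held it, were also below 0. Whether the match bears on the RNA difference was not tested. These are matches of letters on both strands, and binding was not measured here.

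**Figure D3:**
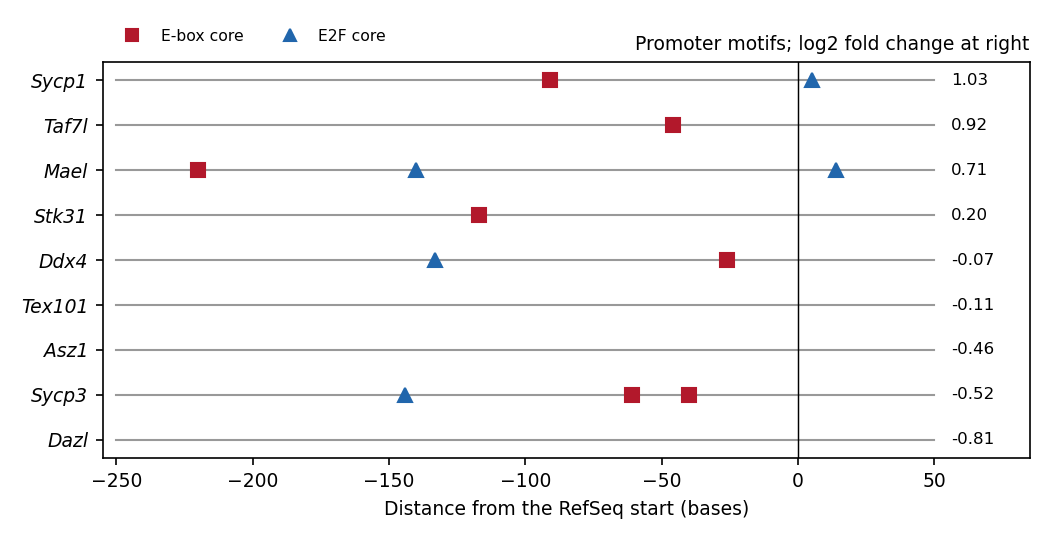
Positions of E-box cores (red squares) and E2F cores (blue triangles) relative to the RefSeq start, in bases, for the 9 germline genes with a promoter window, ordered by log2 fold change (numbers at right, KO-labelled over WT). *Sycp1*, *Taf7l* and *Mael* at the top each hold an E-box core, and so do *Stk31*, *Ddx4* and *Sycp3* lower down.

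Of the 10 genes, the others of the piRNA machinery and germ granule did not pass the test. *Ddx4*, the germ cell RNA helicase Vasa on chromosome 13 (113388541 to 113442518, minus strand), whose promoter is printed above, had 2388 and 2262 normalized counts in WT and 2329 and 2085 in the KO-labelled pair. The groups overlapped, and its log2 fold change was -0.07 ± 0.10 (interval -0.27 to 0.12, DESeq2 adjusted p = 0.632), and the interval leaves out a 2-fold difference in either direction. *Piwil2* encodes MILI, a PIWI protein that binds piRNAs, on chromosome 14 (70772287 to 70828901, minus strand), and had 3448 and 3071 normalized counts in WT and 3138 and 2984 in the KO-labelled libraries. It too overlapped between groups (-0.09 ± 0.09, interval -0.27 to 0.09, adjusted p = 0.516), and it spans 2 small RNA genes on its strand, SNORA70 and U11, neither of them in its exons. *Asz1*, which anchors piRNA processing at mitochondria, on chromosome 6 (18000964 to 18059061, minus strand), was the lowest gene, with 62.3 and 56.6 normalized counts in WT and 48.8 and 37.6 in the KO-labelled libraries. Both KO-labelled values were below WT, but the interval was wide (-0.46 ± 0.47, -1.39 to 0.46, adjusted p = 0.516), so that at this depth a 2-fold decrease could not be told from no difference.

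*Stk31* encodes a Tudor domain protein of germ cells with a kinase domain, on chromosome 6 (49345603 to 49419500, plus strand). Its normalized counts were 1389 and 1282 in WT and 1645 and 1433 in the KO-labelled libraries, without overlap. The difference was small and did not pass the test (log2 fold change 0.20 ± 0.12, interval -0.02 to 0.43, DESeq2 adjusted p = 0.18). The gene Gm17060 lies on its other strand outside the exons.

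*Dazl*, an RNA-binding regulator of translation that germ cells need, on chromosome 17 (50418719 to 50432924, minus strand), had 738 and 844 normalized counts in WT and 576 and 330 in the KO-labelled libraries. Both KO-labelled libraries were below WT but far from each other. Its log2 fold change was -0.81 ± 0.40 (interval -1.59 to -0.03) with a DESeq2 adjusted p of 0.111, and edgeR's quasi-likelihood test gave 0.00844. With the replicate number as a block and without KO-labelled replicate 1 it also passed 0.05, and in the latter case it was called lower (-1.25, adjusted p = 1.43e-06). Whether *Dazl* passed thus depended on the test and on 1 library. Its nearest expressed protein-coding neighbours were both called lower, *Rftn1* at 88.7 kb by -1.88 ± 0.37 (adjusted p = 4.86e-06) and *Plcl2* at 216 kb by -1.28 ± 0.26 (adjusted p = 7e-06), while the median of chromosome 17 was -0.14. *Slc38a9*, 8.47 kb from *Ddx4*, was called higher (1.13 ± 0.18, adjusted p = 3.54e-09), beside the value of *Ddx4* near 0. Next to *Sycp1*, *Tspan2* fell (-0.93 ± 0.21, adjusted p = 4.56e-05) and *Sike1* was at 0.15 ± 0.11 (adjusted p = 0.348).

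*Sycp3*, a protein of the lateral elements of the synaptonemal complex, on chromosome 10 (87922314 to 87935981, plus strand), had 154 and 110 normalized counts in WT and 101 and 82.2 in the KO-labelled pair. The values of the groups did not overlap but nearly touched, and the difference did not pass the test (log2 fold change -0.52 ± 0.34, interval -1.19 to 0.14, DESeq2 adjusted p = 0.253). Chromosome 10 had a median of -0.35, and *Sycp3* was at -0.18 with it removed. Of its exonic bases 52.2% are shared with *Chpt1* on the other strand, and since the strand setting of the counting was not stated, its reads cannot be told apart from those of *Chpt1*. *Tex101*, a surface protein of germ cells needed for sperm function, on chromosome 7 (25453031 to 25457069, minus strand), had 92.8 and 105 normalized counts in WT and 83.6 and 99.4 in the KO-labelled pair. The groups overlapped (-0.11 ± 0.35, interval -0.79 to 0.58, adjusted p = 0.861). The partner proteins SYCP1 and SYCP3 thus had RNA values on opposite sides of 0, a contrast that was not itself tested.

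Compared per length of exon, RNA of these genes was detected in WT, at middle to high ranks among all protein-coding genes. They are therefore called germline genes here and not silenced genes. Of the 22380 protein-coding genes, 4109 had no count in any library, so these ranks would be lower among expressed genes alone. *Ddx4* had the highest level, 816 normalized counts per kb, above that of 84.8% of the 22380 protein-coding genes, followed by *Piwil2* at 663, *Mael* at 531, *Stk31* at 413 and *Dazl* at 263. *Sycp1* at 150, *Taf7l* at 129, *Sycp3* at 104 and *Tex101* at 93.6 formed a lower group, and *Asz1* was last at 21.02. Of the 10 genes, 9 thus exceeded the median protein-coding gene, at 35.8 counts per kb, and all lay far below the median of the stem cell markers, at 6486. Neighbours in this order overlapped between libraries for *Taf7l* and *Sycp3* and for *Sycp3* and *Tex101*, and the others kept their order in both WT libraries. In the KO-labelled libraries *Mael* came first, at 868 counts per kb (above 84.96% of protein-coding genes), ahead of *Ddx4* at 775 and *Piwil2* at 623. *Stk31* was next at 475, *Sycp1* followed at 308 and *Taf7l* at 245. *Dazl* came after them at 150, and *Tex101* at 86.8 and *Sycp3* at 72.5 overlapped, with *Asz1* again last at 15.3.

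**Figure D4:**
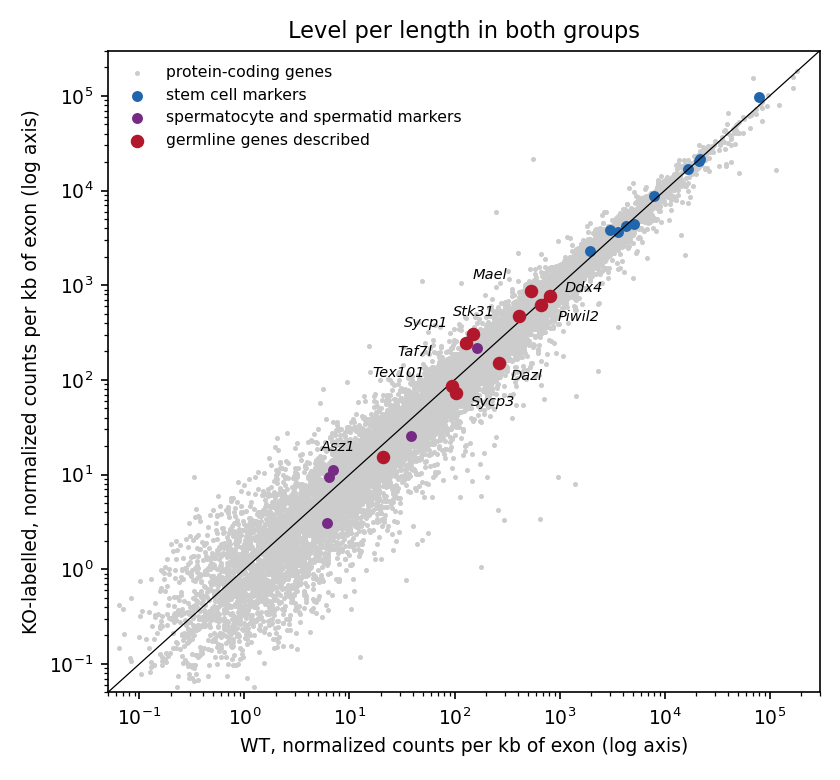
Mean normalized counts per kb of exon in WT (x) and in the KO-labelled libraries (y), both on log axes, for protein-coding genes (grey), stem cell markers (blue), spermatocyte and spermatid markers with counts in both groups (purple) and the 10 germline genes (red); the line marks equal levels. Of the 10, *Mael*, *Sycp1* and *Taf7l* lie farthest above the line and *Dazl* farthest below it, and all 10 lie below the stem cell markers.

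Other genes of the same pathways, taken from lists written from general knowledge, moved in both directions. Together 79 further genes of these lists, called other germline genes here, were in the table and 71 of them received an adjusted p. They were listed by pathway and not for being limited to germ cells. *Prmt5* of the piRNA list, named for its level, had 20751 and 20917 normalized counts in WT and rose by 0.49 ± 0.07. At an adjusted p under 0.05, 24 of the 71 rose and 12 fell, against the 16.4% and 15.8% of all genes given above, 9 were called higher and 4 called lower, against 1.36% and 3.15% of all genes, and their median log2 fold change was 0.21. Of the piRNA pathway, 22 genes were found and 21 tested, of which 4 rose and 5 fell, with a median of -0.05. For this and each list that follows, the shares of all genes that rose and fell at the same threshold were 16.4% and 15.8%, and the median of all genes was 0.0049. *Fkbp6*, a co-chaperone of piRNA loading, fell from 1534 and 1529 normalized counts in WT to 455 and 387 (log2 fold change -1.86 ± 0.13, DESeq2 adjusted p = 3.98e-43), and the Tudor gene *Tdrd7* from 129 and 145 to 31.3 and 61.0 (-1.56 ± 0.40, adjusted p = 0.000545). None of the piRNA genes was called higher by DESeq2 as set here or by edgeR, 1 was with upper-quartile size factors, without WT replicate 2 or without KO-labelled replicate 2, and 4 were higher at an unadjusted p under 0.05. *Gpat2*, a mitochondrial partner of MILI, rose from 689 and 714 to 1412 and 1373 (0.99 ± 0.12), and the helicase *Ddx25* by 0.64 ± 0.16.

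Of 32 other genes of the synaptonemal complex and meiotic recombination, 29 were tested, 15 rose (*Sycp1*, counted among the 10, also did) and 2 fell, beside 16.4% and 15.8% of all genes, with a median of 0.37. *Stra8*, which drives entry into meiosis and is also among the spermatogonial markers above, rose from 594 and 604 normalized counts to 1987 and 2190 (log2 fold change 1.80 ± 0.12, DESeq2 adjusted p = 3.73e-51). *Tex11*, an X-linked recombination gene, rose from 807 and 836 to 2748 and 2388 (1.64 ± 0.11), and *Meioc*, which the annotation names Gm1564 and which keeps germ cells in meiotic prophase, from 742 and 750 to 2508 and 2030 (1.60 ± 0.13). The recombination gene *Rec114* (2410076I21Rik in the annotation) shares 2.72% of its exonic bases with *Nptn* on the other strand and fell from 586 and 509 to 209 and 164 (-1.56 ± 0.20), and *Hormad2*, of unsynapsed chromosome axes, from 396 and 416 to 201 and 163 (-1.16 ± 0.21).

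Of 15 other germline genes known to respond to loss of DNA methylation, 14 were tested, 4 rose and 4 fell, with a median of -0.15. *Boll*, a relative of *Dazl*, rose from 51.7 and 45.7 normalized counts to 154 and 134 (log2 fold change 1.57 ± 0.36), while *Cpeb1* rose by 1.30 ± 0.27 and *Slc25a31* by 1.22 ± 0.24. *Tex19.2* fell (-0.89 ± 0.26), and so did *Rpl10l* (-0.69 ± 0.15), and both counts are uncertain because 9.46% and 86.8% of their windows have a near-identical copy. With the median of chromosome 11 (0.16) removed, *Tex19.2* was at -1.05 ± 0.26 and was called lower (DESeq2 adjusted p = 0.000347). With the median of its chromosome 12 (-0.32) removed, *Rpl10l* was at -0.37 ± 0.15 and did not pass (DESeq2 adjusted p = 0.0502). Of 11 X-linked spermatogonial genes beside *Taf7l*, 8 were tested, 2 rose and 1 fell. *Tex11* was called higher and *Usp26* fell (-0.90 ± 0.22). The other that rose, *Tex16*, named after its values were seen, had 45.1 and 34.8 normalized counts in WT and 106 and 118 in the KO-labelled pair (1.496 ± 0.41, adjusted p = 0.00127). It was not called here, but was by edgeR (adjusted p = 0.000828), with upper-quartile size factors, with the filter on low counts and with chromosome medians removed.

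**Figure D5:**
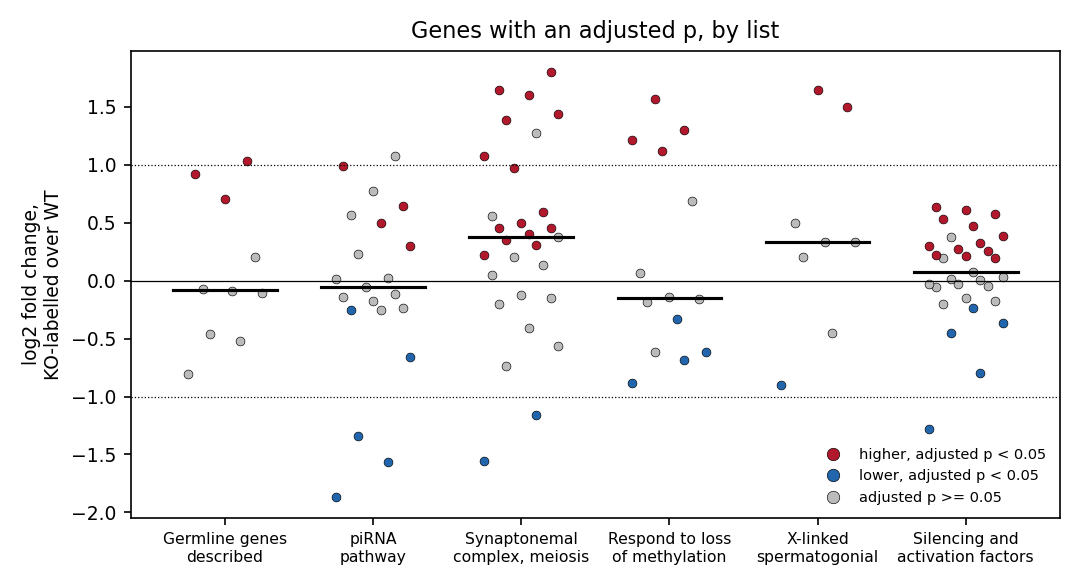
log2 fold change (KO-labelled over WT) of each gene with an adjusted p, by list, with a bar at the median of the list; red marks genes higher and blue genes lower at a DESeq2 adjusted p under 0.05, and dotted lines mark a 2-fold change. The medians of the 10 germline genes and of the piRNA list are -0.08 and -0.05, and that of the meiosis list is 0.37.

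Of 31 genes for factors that silence or activate germline genes, all were tested, 13 rose and 5 fell, beside 16.4% and 15.8% of all genes, and the median log2 fold change was 0.08. *Dnmt3l*, the cofactor of de novo DNA methylation, was called lower, and fell from 16448 and 15599 normalized counts to 6470 and 6706 (log2 fold change -1.28 ± 0.07, DESeq2 adjusted p = 1.59e-72). It shares 2.24% of its exonic bases with *Aire* on the other strand. *Dnmt3l* lies on chromosome 10. With the chromosome median of -0.35 removed it was at -0.94 ± 0.07 (DESeq2 adjusted p = 2.4e-38), still lower but no longer past 2-fold. *Hells*, a chromatin remodeller needed for DNA methylation, rose by 0.63 ± 0.08 and the methylcytosine oxidase *Tet2* by 0.61 ± 0.08. *Hells* lies on chromosome 19, whose median was 0.38, and with that median removed it was at 0.25 ± 0.08 (DESeq2 adjusted p = 0.00913). None was called higher by DESeq2 or by edgeR, and 15 were higher at an unadjusted p under 0.05. The genes named next were chosen after their values were seen. The de novo methyltransferase *Dnmt3b* fell from 18744 and 19393 to 10685 and 11316 (-0.79 ± 0.07), *Dnmt3a* was at -0.06 ± 0.07 (adjusted p = 0.599), and the maintenance methyltransferase *Dnmt1* rose by 0.33 ± 0.07. Of the Polycomb complex whose motifs were searched above, *L3mbtl2* rose by 0.47 ± 0.08, *Pcgf6* by 0.39 ± 0.08 and *Mga* by 0.28 ± 0.07, while *E2f6* was at -0.18 ± 0.10 (adjusted p = 0.204) and *Max* at 0.02 ± 0.08 (adjusted p = 0.905). With chromosome medians removed, *Pcgf6*, also on chromosome 19, was at 0.01 ± 0.08 (adjusted p = 0.968) and *Mga* at 0.17 ± 0.07 (adjusted p = 0.0700), neither past the test, and *Dnmt1* was at 0.19 ± 0.07 (adjusted p = 0.0209). On chromosome 12 the same removal moved *Dnmt3a* to 0.26 ± 0.07 (adjusted p = 0.00103), *Max* to 0.34 ± 0.08 (adjusted p = 0.000399) and *E2f6* to 0.14 ± 0.10 (adjusted p = 0.336). Part of the count is uncertain for *L3mbtl2*, which shares 17.2% of its exonic bases with genes on the other strand, and for *E2f6*, *Dnmt3b* and *Max*, with near-identical copies of 28.8%, 10.4% and 10.1% of their windows. For *Dnmt3a*, *Tet2*, *Hells*, *Pcgf6* and *Mga* such shares were under 2%. The differences in these factors stood beside higher *Mael*, *Sycp1* and *Taf7l* and beside values near 0 for *Ddx4* and *Piwil2*, and whether they bear on these genes was not tested.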

How the data were processed

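RNA was sequenced from 2 HATX WT and 2 *Spen* KO clone 2 libraries. Per the labels and the study's methods, libraries were stranded and depleted of ribosomal RNA, and paired 75-base reads were mapped to mm9 with STAR. With featureCounts the authors then counted reads over the genes of GENCODE vM1, and the deposited values are raw counts per gene, not normalized. Tool versions, the strand setting and the treatment of multiply mapped reads were not given in the sources used here, so counts of named genes that share exonic bases with another gene or have copies are uncertain, and the shares are given beside their values. Copies were sought by placing 75-base exonic windows on the NCBIM37 genome with minimap2 2.31-r1302, allowing 3 differences. Every column had a sample (0 without one), and groups came from the labels.

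Differences were tested over the whole table in R 4.3.3 by the Wald test of DESeq2 1.42.0 (group alone, Benjamini-Hochberg adjustment over 17710 genes), as in the study. Positive log2 values are higher in the KO-labelled libraries. The script was tested on simulated data. Alternatives were edgeR 4.0.16 (quasi-likelihood test), other size factors and filters, thresholds, shrunken fold changes, chromosome medians, each library left out, the replicate number as a block, and counts halved and rounded up, the last chosen after seeing the data. No paired effect was seen: deviations of same-numbered libraries correlated at -0.02 over 13306 genes.

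The 10 genes and the lists were chosen with earlier results of these data known. Named genes were *Spen*, the 10 genes, from each list and direction up to 3 called genes or, where none was called, up to 2 with an adjusted p under 0.05, and the nearest protein-coding neighbours (mean of at least 10 normalized counts) where the gene or the neighbour was called. *Btbd18* and *Atf7ip* were not matched. Chromosome medians cover genes with a mean of at least 50 normalized counts. Coordinates are 1-based. Intervals cover the fitted error only, and the WT libraries, with 36667685 and 43835004 counts against 54715889 and 61908422, limit the precision of low genes first.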

Additional observations from a re-analysis of the deposited data

How the results depend on the processing

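Limits are few libraries, 1 clone, and low counts of *Asz1*, *Tex101* and *Sycp3*. *Mael*, *Sycp1* and *Taf7l* stayed higher at an adjusted p under 0.05 in the 12 alternatives that gave one, while the 2-fold call of *Sycp1* did not hold in all. The cause of the changes below was not tested, except where fewer libraries or another threshold made them by construction.

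Of all genes, 241 were called higher and 558 lower. Shrunken fold changes gave 151 and 368, an adjusted p under 0.05 with the 2-fold minimum 371 and 852, without it 2909 and 2805, an adjusted p under 0.001 without it 1499 and 1571, and a test against 2-fold 40 and 120. Leaving out 1 library gave 137 to 185 higher and 332 to 404 lower. Of the 10 germline genes, 1 was called higher, against 0 with shrunken fold changes, 0 with chromosome medians removed, 0 in the test against 2-fold, and 3 at an adjusted p under 0.05 or under 0.001 without the fold minimum. Leaving out 1 library gave 0 to 2 higher (0 without KO-labelled replicate 1, 2 without WT replicate 1) and 0 to 1 lower (*Dazl*, without KO-labelled replicate 1). Of the other germline genes, 9 were called higher and 4 lower, against 5 and 2 with shrunken fold changes, 24 and 12 at 0.05 and 16 and 7 at 0.001 without the fold minimum, 3 and 1 in the test against 2-fold, and 5 to 7 and 2 to 3 with 1 library left out. Of the silencing and activation factors, 0 were called higher, against 13 at 0.05 and 8 at 0.001 without the fold minimum. Called lower was 1 (*Dnmt3l*), against 5 and 4 at these thresholds and 0 in the test against 2-fold. With chromosome medians removed that number was 0, with *Dnmt3l* at -0.94, short of 2-fold. Of the list that responds to loss of methylation 4 were called higher, against 1 with any library left out or with shrunken fold changes. Of the piRNA list 2 were called lower, against 1 with any library left out, by edgeR, with chromosome medians removed, with shrunken fold changes and with halved counts. Of the meiotic list 2 were called lower, against 1 with shrunken fold changes or without any library but KO-labelled replicate 1. The median log2 fold change of the 10 genes, -0.08, ran from -0.063 to -0.016 with 1 library left out. That of *Ddx4* ran from -0.15 to 0.0062 (above 0 without KO-labelled replicate 2) and that of *Tex101* from -0.24 to 0.017 (above 0 without KO-labelled replicate 1).

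In the fit with a replicate block, 192 calls were higher and 457 lower over all genes, of the 10 germline genes 1 and 0, and their median was -0.08. It gave 2 higher calls in the loss-of-methylation list and 1 lower call in the piRNA list. Same-numbered libraries did not deviate together (correlation -0.02), so the numbers were not taken as pairs. Counts halved and rounded up, a setting chosen after seeing the data because low counts were mostly even, left the calls among the 10 genes as they were. No gene of the 10 was at or under 3 counts in all libraries of a group, so no median with such genes at a bound was run.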

Other observations

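Among the cell type markers, whose sums are given with the opening values, single genes moved in both directions. *Id4*, a marker of undifferentiated spermatogonia, fell from 171 and 143 normalized counts in WT to 35.7 and 44.6 in the KO-labelled libraries (log2 fold change -1.96 ± 0.36, DESeq2 adjusted p = 6.26e-07), with 10.3% of its exonic bases shared with a gene on the other strand, and *Sohlh2*, a transcription factor of early germ cell differentiation, from 1975 and 2030 to 940 and 1169 (-0.92 ± 0.12). *Dmrt1*, another gene of the spermatogonial list, rose from 1290 and 1423 to 2552 and 2745 (0.96 ± 0.10), and was at 0.58 ± 0.10 with the median of its chromosome 19 removed. Of the 5 primordial germ cell markers, 3 fell and 1 rose at a DESeq2 adjusted p under 0.05, against 15.8% and 16.4% of all genes. Their median log2 fold change was -0.36. *Prdm1*, a regulator of primordial germ cell fate, fell from 320 and 377 to 119 and 112 (-1.59 ± 0.24, adjusted p = 3.11e-10), while *Nanos3* of the same list rose from 188 and 160 to 347 and 335 (0.97 ± 0.22, adjusted p = 9.9e-05). The others that fell were *Dppa3* (-0.55 ± 0.09), which has near-identical copies of 88.0% of its windows, and *Kit* (-0.36 ± 0.08). These genes were named after their values were seen.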
